A study of Rattus norvegicus with 8 samples.

Results

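miR-1, miR-133 and miR-206 are the classical muscle miRNAs, and their levels were examined here in the striatum of rats that self-administered methamphetamine (METH) or saline. The members were 5 mature miRNAs, chosen by name from the 752 in the count table: rno-miR-1-3p, rno-miR-133a-3p, rno-miR-133a-5p, rno-miR-133b-3p and rno-miR-206-3p, named below without the species prefix. All 5 had a row in the table, and 4 passed the filter on low counts, since miR-133a-5p had no count in any library. Small RNA was sequenced from 8 wild-type (WT) rats, with 4 in the saline group and 4 in the METH group, and each rat gave 1 library from its striatum, a forebrain region for reward and movement. Per the methods of the study, the rats were male Sprague-Dawley rats that pressed a lever for METH or saline through a jugular catheter. Both groups had the same surgery, and rats with a stable response were chosen. More rats were started on METH than on saline and 4 of each were chosen, so a smaller share of the METH rats was kept. The age of the rats was not given in the sources used here.

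In the genome these miRNAs lie in pairs of one miR-1-type and one miR-133-type hairpin that can be made from a common transcript. miR-1 and miR-133a are abundant in skeletal and heart muscle, where muscle transcription factors drive them, whereas miR-206 and miR-133b are best known from skeletal muscle. A miRNA finds its target mRNAs mainly through its seed, the bases 2 to 8 from its 5′ end. In the brain, miR-133b has been linked to dopamine neurons, whose axons end in the striatum, and miR-206 to the mRNA of the growth factor BDNF.

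The mature sequences show which members can act on the same targets and which could be confused in counting. All 5 members matched the RefSeq miRNA table of the rat assembly GRCr8, from which the sequences below are copied 5′ to 3′, with the seed in capitals. miR-1b, which is no member, is included because it shares the seed and nearly the whole sequence of miR-1-3p.
miR-1-3p: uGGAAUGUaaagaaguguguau
miR-1b: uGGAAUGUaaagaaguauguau
miR-206-3p: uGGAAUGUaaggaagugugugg
miR-133a-3p: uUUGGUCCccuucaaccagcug
miR-133b-3p: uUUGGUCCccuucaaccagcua
miR-133a-5p: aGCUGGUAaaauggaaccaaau

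The seed GGAAUGU was found in 3 of the 693 mature miRNAs of that table, namely miR-1-3p, miR-1b and miR-206-3p. The seed UUGGUCC was found in 2, namely miR-133a-3p and miR-133b-3p. All 4 detected members are 22 bases long. How well each sequence is captured in a library was not measured, so levels of different members are compared below as counts only. Counted from the 5′ end, miR-133b-3p differs from miR-133a-3p by G22A alone, at the last base. miR-1b differs from miR-1-3p by G17A alone. miR-206-3p differs from miR-1-3p by A11G, A21G and U22G. The rule for reads that fit several places is not given in the sources used here, so the split between miR-133a-3p and miR-133b-3p, and that between miR-1-3p and miR-1b, is uncertain. In GRCr8, Mir206 and Mir133b are neighbours on the plus strand of chromosome 9. Mir1 and Mir133a1 lie on the minus strand of chromosome 18, where both overlap the gene Mib1. Mir1b lies on chromosome 3.

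The total count ranged from 12929302 to 27632443 per library. As a check of the tissue, miR-124-3p, the main miRNA of neurons, was the most abundant miRNA in 7 of the 8 libraries. In METH rat 4 it came second, at 97752 CPM, to miR-9a-5p at 204524 CPM. This library stood apart from the others. Its Pearson correlations with the others over the 507 tested miRNAs were 0.951 to 0.969, against 0.969 to 0.993 among the other 7 libraries, and it held the lowest level of the 8 for 34.7% of tested miRNAs and the highest for 30.4%. Levels are given below as CPM, the count per 1000000 counts of the library, whose size was adjusted by a TMM factor (trimmed mean of M-values).

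miR-206-3p was the most abundant member. Its counts in saline rats 1 to 4 were 993, 1324, 976 and 1012, while METH rats 1 to 4 had 442, 804, 1645 and 1760. The level was 44.5, 56.8, 35.6 and 39.6 CPM in the saline rats and 30.4, 40.5, 66.4 and 106 CPM in the METH rats. Both the lowest and the highest level of the 8 therefore belonged to METH rats, and the groups overlapped. It averaged 44.1 ± 9.22 CPM (SD, n = 4) with saline against 60.7 ± 33.6 CPM (SD, n = 4) with METH. miR-206-3p ranked 240 of the 752 miRNAs by mean level, and it made up between 64.2% and 92.1% of the summed CPM of the members in each library.

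miR-133a-3p, which in muscle acts on regulators of growth and contraction, was the next most abundant. Its counts were 217, 212, 250 and 275 in saline rats 1 to 4, and 163, 222, 299 and 84 in METH rats 1 to 4. The saline rats lay between 9.10 and 10.7 CPM, METH rats 1 to 3 between 11.2 and 12.1 CPM, and METH rat 4 at 5.04 CPM. METH rats 1 to 3 were thus above every saline rat, and METH rat 4 was below every saline rat. It averaged 9.67 ± 0.78 CPM (SD, n = 4) with saline against 9.87 ± 3.24 CPM (SD, n = 4) with METH.

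miR-133b-3p, the member linked to dopamine neurons, had counts of 47, 76, 110 and 89 in saline rats 1 to 4 and 59, 79, 90 and 31 in METH rats 1 to 4. Its level ranged from 2.11 to 4.01 CPM in the saline group and from 1.86 to 4.05 CPM in the METH group, so that the ranges nearly coincided. The lowest level was again that of METH rat 4. miR-133b-3p averaged 3.21 ± 0.80 CPM (SD, n = 4) with saline against 3.38 ± 1.03 CPM (SD, n = 4) with METH.

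miR-1-3p was the least abundant detected member and ranked 436 of 752 by mean level. Its counts were 82, 22, 38 and 30 in saline rats 1 to 4 and 25, 33, 56 and 37 in METH rats 1 to 4. At these counts the counting error is wide, since the lowest count of 22 has an exact 95% Poisson interval of 13.8 to 33.3. Such intervals cover counting error only, and copies made by PCR would widen them. Saline rat 1, at 3.68 CPM, was above all other rats, whereas saline rats 2 to 4 lay between 0.944 and 1.39 CPM and the METH rats between 1.66 and 2.26 CPM. miR-1-3p averaged 1.79 ± 1.27 CPM (SD, n = 4) with saline against 1.96 ± 0.32 CPM (SD, n = 4) with METH.

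**Figure D1:**
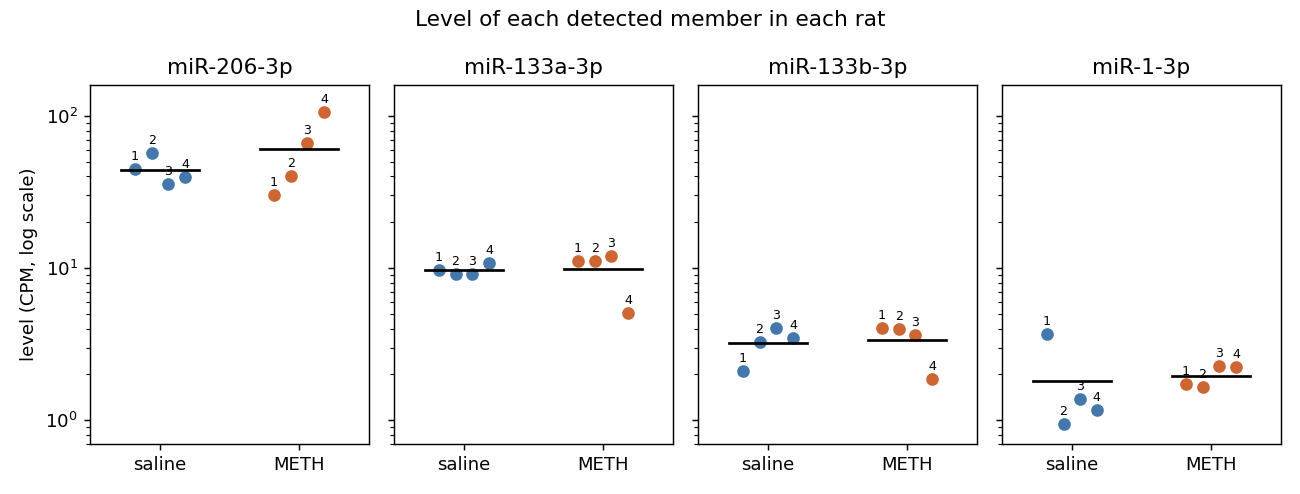
Level of each detected member in each rat, in CPM on a log axis, with the saline group in blue and the METH group in orange. Points are single rats marked by their number and bars are group means. METH rat 4 is highest for miR-206-3p, at 106 CPM, and lowest for miR-133a-3p, at 5.04 CPM, and for miR-133b-3p, at 1.86 CPM.

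The order from miR-206-3p over miR-133a-3p and miR-133b-3p to miR-1-3p held in 6 of the 8 libraries. The exceptions were saline rat 1 and METH rat 4, in which miR-1-3p was above miR-133b-3p. Over all rats, miR-206-3p ranged from 30.4 to 106 CPM and miR-133a-3p from 5.04 to 12.1 CPM, without overlap. miR-133b-3p ranged from 1.86 to 4.05 CPM and miR-1-3p from 0.944 to 3.68 CPM, both below the lowest miR-133a-3p. The ranges of these neighbours in the order overlapped, and the difference between them was not tested.

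The other strand of the hairpins was nearly undetected. The hairpin of Mir133a1, 87 bases long in RefSeq (GRCr8, chromosome 18, minus strand), is shown with both annotated mature arms in capitals, the 5p arm first.
Mir133a1: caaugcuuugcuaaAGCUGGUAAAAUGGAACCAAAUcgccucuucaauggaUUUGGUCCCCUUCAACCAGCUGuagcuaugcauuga

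miR-133a-5p had 0 counts in each of the 8 libraries, against 1722 counts of miR-133a-3p over all of them. A count of 0 allows up to 3 counts by a one-sided 95% limit, which is a level of 0.109 to 0.206 CPM depending on the library. Taking 3 counts over all libraries as the floor, the 3p arm was at least 574-fold higher than the 5p arm. miR-1-5p and miR-206-5p also had 0 counts, and miR-133b-5p had 1 count, in METH rat 3. Among the 195 precursors in the table with a 5p and a 3p row and at least 1000 counts for the major arm, the minor arm had 0 counts in 4, namely miR-133a, miR-206, miR-375 and miR-449a, while its median share was 3.46% of the major arm. The zeros depend on depth. A count of 0 beside 1722 bounds the share of miR-133a-5p at 0.174% of the 3p arm, and in 34 of the 195 precursors the minor arm was at or below that share. miR-133c, whose 21 bases are fully complementary to miR-133a-3p at the same locus on the opposite strand, had 0 counts in each library.

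The first comparison asked whether METH self-administration went along with other levels of these miRNAs. In the quasi-likelihood test of edgeR over 507 miRNAs, 0 of the 4 tested members had an adjusted p under 0.05, where 0.0% of all tested miRNAs passed. At an unadjusted p under 0.05 there were 0 members, against 5.52% of all tested miRNAs. With the same counts, DESeq2 called 8 miRNAs and the edgeR exact test 6, and no member was among the calls of either. The log2 fold changes of METH over saline were 0.46 ± 0.38 (SE) for miR-206-3p, 0.14 ± 0.43 (SE) for miR-1-3p, 0.07 ± 0.33 (SE) for miR-133b-3p and 0.03 ± 0.30 (SE) for miR-133a-3p. The adjusted p of edgeR was 0.840 for miR-206-3p, 0.978 for miR-1-3p and for miR-133b-3p, and 0.985 for miR-133a-3p. All 4 differences were smaller than the spread between rats. In the two-sided exact permutation test of log2 CPM over the 70 assignments of rats to groups, unadjusted p was 0.514 for miR-206-3p, 0.486 for miR-1-3p, 0.800 for miR-133b-3p and 1 for miR-133a-3p, where the smallest p possible is 0.0286.

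The precision of these values sets what could have been missed. The 95% interval of the edgeR fit for the ratio of METH to saline ran from 0.762 to 2.49 for miR-206-3p, from 0.562 to 2.15 for miR-1-3p, from 0.631 to 1.75 for miR-133b-3p and from 0.639 to 1.63 for miR-133a-3p. A doubling of miR-206-3p or of miR-1-3p thus lay inside the interval, whereas it lay outside for both miR-133 members. All 4 fitted log2 fold changes were above 0, as were those of 47.3% of tested miRNAs, but those of miR-1-3p and miR-133a-3p fell to -0.0027 and -0.041 when library totals replaced the TMM factors. That of miR-206-3p was then 0.23, and it was 0.17 with limma voom and sample quality weights. Over the 4 members, the fitted log2 fold changes had a median of 0.10, beside -0.02 over all tested miRNAs. With library totals these medians were 0.00068 and -0.12.

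**Figure D2:**
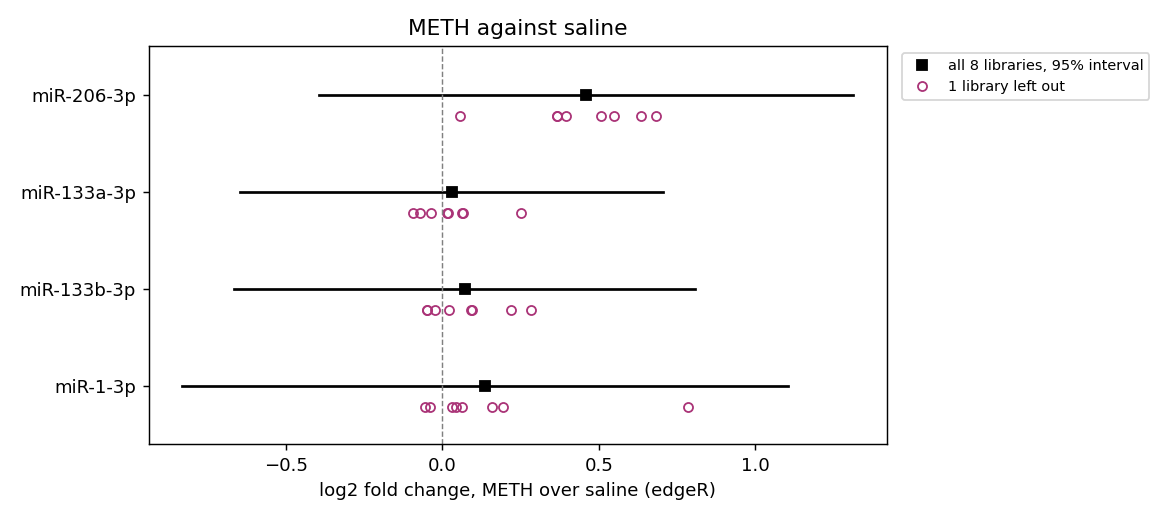
Log2 fold change of METH over saline in the edgeR fit for each detected member. Squares and lines give the estimate and its 95% interval with all 8 libraries, and open circles give the estimates with 1 library left out. Every interval includes 0, and for miR-206-3p the circle nearest 0, at 0.06, is the fit without METH rat 4.

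Single libraries decided much of these values. Without METH rat 4, the log2 fold change of miR-206-3p dropped from 0.46 to 0.06, and that of miR-133a-3p rose from 0.03 to 0.25. miR-133a-3p was then higher in all 3 remaining METH rats than in every saline rat, which was true in either direction of 6.31% of tested miRNAs without this library. The adjusted p in edgeR was then 0.998. Without saline rat 1, the log2 fold change of miR-1-3p rose from 0.14 to 0.79. All 4 METH rats were then above the 3 remaining saline rats, which held in either direction for 8.68% of tested miRNAs without that library. The adjusted p of miR-1-3p in edgeR was then 0.644. In the two-sided exact permutation test of log2 CPM, unadjusted p was 0.0286 for miR-1-3p without saline rat 1. It was 0.0571 for miR-133a-3p without METH rat 4. These libraries were singled out, from the 8 left out in turn, with their levels of these miRNAs in view. The separation seen without them and its p-values are therefore a description. With all 8 libraries, 0 of the 4 members had groups that did not overlap, beside 3.16% of tested miRNAs.

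Reads that could belong to either of a pair of near-identical miRNAs were also summed, an alternative chosen after seeing the data. The summed counts of miR-133a-3p and miR-133b-3p gave a log2 fold change of 0.0046 ± 0.31 (SE), and those of miR-1-3p and miR-1b gave 0.25 ± 0.33 (SE). The adjusted p of edgeR was 0.992 and 0.923. Neither sum passed the threshold.

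Ratios of counts within a library do not depend on its scaling. The ratio of miR-206-3p to miR-133b-3p, which lie next to each other on chromosome 9, was 21.1, 17.4, 8.87 and 11.4 in saline rats 1 to 4. In METH rats 1 to 4 it was 7.49, 10.2, 18.3 and 56.8. The groups overlapped, and METH rat 4 was above every other rat. The ratio of miR-133b-3p to miR-133a-3p, the members that differ at the last base, varied from 0.217 in saline rat 1 to 0.440 in saline rat 3. It averaged 0.335 ± 0.093 (SD, n = 4) with saline against 0.347 ± 0.031 (SD, n = 4) with METH. METH rat 4, at 0.369, was not set apart by this ratio.

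The ratio of miR-1-3p to miR-133a-3p, from neighbouring loci on chromosome 18, was 0.378 in saline rat 1 and 0.440 in METH rat 4. It lay between 0.104 and 0.187 in the other 6 libraries. The high value in saline rat 1 came with a high count of miR-1-3p, and that in METH rat 4 with a low count of miR-133a-3p. miR-1b was more abundant than miR-1-3p in every library, and the ratio of miR-1-3p to miR-1b lay between 0.166 and 0.329 over all rats.

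Levels of the members were then compared across the 8 rats, over 6 pairs with p-values adjusted for 6. miR-133a-3p and miR-133b-3p went together, with a Pearson r of 0.75 (exact permutation p = 0.0359, adjusted p = 0.150) and a Spearman rho of 0.62 (exact permutation p = 0.115, adjusted p = 0.345). After group means were subtracted r was again 0.75, but without METH rats 3 and 4, the 2 rats farthest from the median of miR-133a-3p, it was 0.33. Without METH rat 4 alone it was also 0.33, so the relation rested on that rat, and without saline rat 1 alone it was 0.92. Near-identical sequences could also share reads, and their part in this was not tested.

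The correlation of miR-206-3p with both miR-133 members was below 0 over the 8 rats and moved towards or past 0 without METH rat 4. With miR-133a-3p, which lies on another chromosome, Pearson r was -0.71 (exact permutation p = 0.0748, adjusted p = 0.150) and Spearman rho was -0.33 (exact permutation p = 0.428, adjusted p = 0.601), but r was 0.095 without METH rat 4. With miR-133b-3p, its neighbour, Pearson r was -0.68 (exact permutation p = 0.0623, adjusted p = 0.150) and Spearman rho was -0.79 (exact permutation p = 0.0279, adjusted p = 0.168). Within groups r was -0.73. It was -0.68 without METH rat 4 and saline rat 1, the 2 rats farthest from the median of miR-133b-3p. Without METH rat 4 alone it was -0.28, and without saline rat 1 alone it was -0.87. For miR-1-3p and miR-133a-3p, the neighbours on chromosome 18, r was -0.12 (exact permutation p = 0.759, adjusted p = 0.759) and rho was 0.29 (exact permutation p = 0.501, adjusted p = 0.601). For miR-1-3p and miR-133b-3p, r was -0.58 (exact permutation p = 0.144, adjusted p = 0.215) and rho was -0.21 (exact permutation p = 0.619, adjusted p = 0.619). This r was -0.60 without METH rat 4 and -0.32 without saline rat 1. For miR-1-3p and miR-206-3p, r was 0.23 (exact permutation p = 0.574, adjusted p = 0.689). No pair passed an adjusted p of 0.05.

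**Figure D3:**
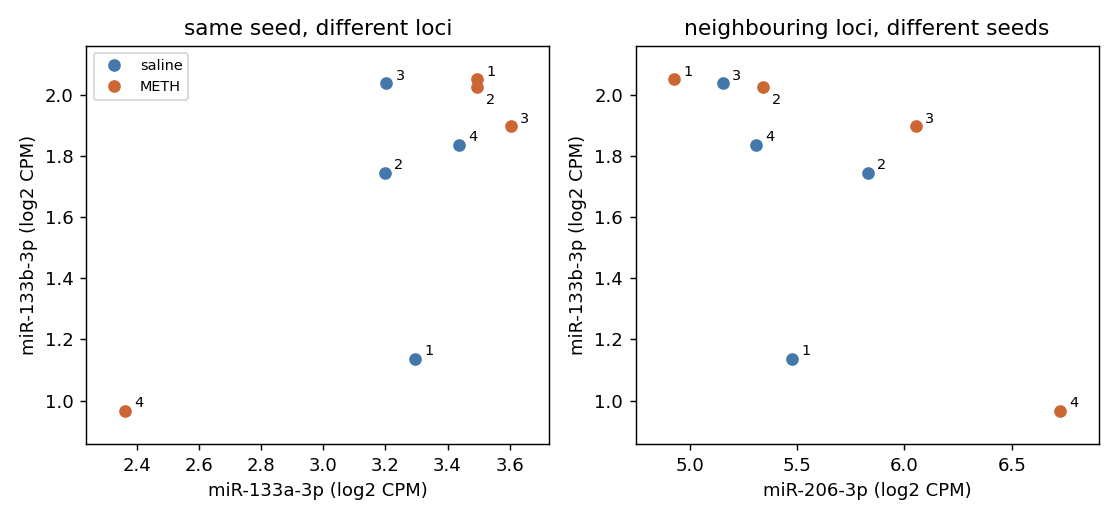
Levels of 2 pairs of members in each rat, in log2 CPM, with the saline group in blue, the METH group in orange and rats marked by their number. The left panel plots miR-133b-3p against miR-133a-3p and the right panel plots it against miR-206-3p. METH rat 4 lies at the low end of miR-133b-3p in both, at 0.97 log2 CPM.

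In their spread between rats, the members lay within the range of the other miRNAs. The SD of log2 CPM within groups was 0.60 for miR-1-3p and for miR-206-3p, 0.46 for miR-133b-3p and 0.42 for miR-133a-3p. Of the 507 tested miRNAs, 68.8%, 68.2%, 46.7% and 41.0% had a smaller SD. Leaving out METH rat 4 changed this most for miR-133a-3p, whose SD fell to 0.095, and only 6 of the 507 tested miRNAs then had a smaller one. Leaving out saline rat 1 changed it most for miR-1-3p, whose SD fell to 0.24. Both libraries were singled out with the levels of these members in view. The other miRNAs were not each freed of their own outlying library, so these SDs and ranks are a description.

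**Figure D4:**
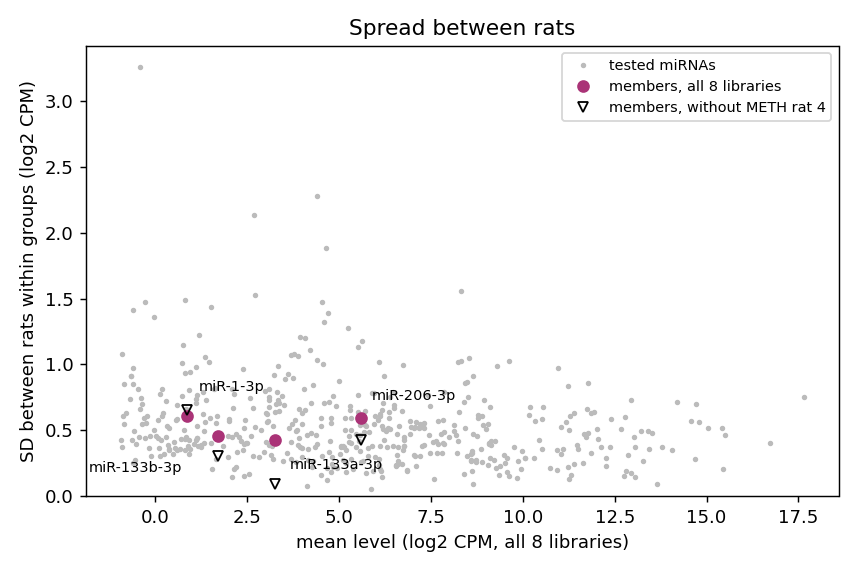
SD between rats within groups against mean level, both in log2 CPM, for the 507 tested miRNAs (grey) and the members (filled circles) with all 8 libraries. Open triangles give the members without METH rat 4, where miR-133a-3p is at 0.095.

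Other muscle miRNAs and markers of other cell types were followed as lists. miR-499-5p, which is made from a myosin gene, averaged 203 ± 26.4 CPM (SD, n = 4) with saline against 224 ± 78.2 CPM (SD, n = 4) with METH, with a log2 fold change of 0.14. The heart myosin miRNAs miR-208a and miR-208b had at most 9 counts in any library on any arm. Of the 5 other products of the member loci and Mir1b, miR-1b was the single one tested, with a log2 fold change of 0.34 (adjusted p = 0.880 in edgeR). Its level was 5.40 to 11.2 CPM in the saline rats and 7.87 to 12.7 CPM in the METH rats, with the highest in METH rat 4 and the next in saline rat 1.

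Adjusted p was at least 0.818 in edgeR for every tested miRNA of the cell type lists. In bulk tissue, fewer cells of a type cannot be told apart from less RNA per cell. The summed level of the 4 smooth muscle and pericyte miRNAs, miR-143 and miR-145 on both arms, was 2110 to 2399 CPM in the saline rats and 2522 to 3185 CPM in the METH rats, without overlap, where 3.16% of single tested miRNAs had groups that did not overlap, and 0 of the 3 tested passed. Nearly all of this sum was miR-143-3p, at 2047 to 2329 CPM with saline and 2418 to 3139 CPM with METH. The levels of miR-145-5p and miR-145-3p overlapped between the groups, and miR-145-5p was lowest in METH rat 4, at 26.8 CPM. The endothelial sum, of miR-126a on both arms, was 8361 to 8815 CPM and 8063 to 10700 CPM. Its arms differed in METH rat 4, where miR-126a-3p was the highest of the 8 libraries, at 10572 CPM, and miR-126a-5p the lowest, at 128 CPM against 232 to 389 CPM in the other 7 libraries. The sum of the 7 miRNAs of forebrain neurons was 287997 to 497068 CPM in the saline rats and 328659 to 476888 CPM in the METH rats, with a median log2 fold change of -0.02. These sums overlapped, and 0 of the 7 passed. In METH rat 4 the sum of the 4 erythrocyte miRNAs found was 2818 CPM, against 343 to 650 CPM in the other 7 libraries. Nearly all of it was miR-451-5p, at 2807 CPM. miR-144-3p was also highest in this rat, at 9.13 CPM against at most 3.87 CPM in the others, but miR-451-3p and miR-144-5p lay within the range of the other libraries. The choroid plexus sum of this rat was 7001 CPM, against 2720 to 3507 CPM in the others, and 6901 CPM of it was miR-204-5p. miR-211-5p, at 52.7 CPM against at most 10.8 CPM, and miR-448-3p, at 29.6 CPM against at most 16.4 CPM, were highest there too, whereas miR-204-3p, at 17.6 CPM, lay within the range of the others. Both sums thus stood apart in the library where miR-206-3p was highest and the miR-133 members were lowest. They were not alone, since this library held the highest level of 30.4% of tested miRNAs. The sum of the myosin-gene miRNAs was also highest there, at 325 CPM against 135 to 225 CPM in the others. So was the sum of the miRNAs linked to dopamine neurons or alpha-synuclein, given below. The part of these sums in the levels of the members was not tested.

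Of 5 other miRNAs linked to Bdnf that were in the table, 0 passed in either direction, with log2 fold changes from -0.29 to 0.58 and a median of -0.03. Of 6 other miRNAs linked to dopamine neurons or alpha-synuclein, 0 passed in either direction, with log2 fold changes from -0.22 to 0.29 and a median of 0.18. Their sum was 75210 CPM in METH rat 4, against 17701 to 37888 CPM in the other libraries, and most of it was miR-7a-5p, at 66916 CPM. miR-7b was highest there too, whereas miR-34b-5p and miR-34c-5p were lowest there, and miR-153-3p and miR-132-3p lay within the range of the others.

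The miRNAs whose pattern over the 8 libraries was most like that of the members were found by Pearson r of log2 CPM. The members did not go together as a set, with r between pairs of them from -0.71 to 0.75, so their mean need not represent any single member. For the mean of the 4 standardised members the closest miRNAs were miR-200b-3p, miR-200a-3p, miR-429, miR-200c-3p and miR-192-3p, with r of 0.90, 0.90, 0.89, 0.86 and 0.78. The first 4 belong to the miR-200 family and had log2 fold changes of METH over saline of 4.55, 4.30, 4.54 and 3.05, with adjusted p of 0.451, 0.559, 0.347 and 0.559 in edgeR. Their level was highest in METH rat 3 and next highest in METH rat 2. For miR-200b-3p it was 193 CPM and 36.7 CPM in these rats, against 1.24 to 6.59 CPM in the other 6. In METH rat 4, where miR-206-3p was highest, miR-200b-3p was at 1.74 CPM. No miRNA of the miR-200 family was the closest to a single member. The closest were miR-193a-3p for miR-133a-3p (r = 0.99), miR-101b-3p for miR-133b-3p (r = 0.97), miR-181a-5p for miR-206-3p (r = 0.95) and miR-187-5p for miR-1-3p (r = 0.92). Without METH rat 4 these 4 values were 0.92, 0.94, 0.91 and 0.92. Each is the highest among all tested miRNAs outside the members, over libraries that share one scaling, and is given as a description.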

How the data were processed

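The authors collected a gel-eluted small RNA fraction, made libraries with a kit that adds molecular identifiers, trimmed reads with cutadapt 1.18, aligned them to rn6 with STAR 2.7.0e and counted them with featureCounts of Subread 1.6.4. The deposited values are raw counts per mature miRNA. Merging of reads with one identifier, the annotation release and the rule for multiply aligned reads are not given in the sources used here.

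Groups came from the treatment in the sample labels. Of 752 miRNAs, 507 passed filterByExpr (minimum count 10) and were scaled with TMM factors. edgeR 4.0.16 (R 4.3.3) then fitted a quasi-likelihood model whose sole term was the group. P-values were adjusted over all 507 by Benjamini-Hochberg at 0.05. The test was checked on simulated counts. The SE and the 95% interval of a log2 fold change were derived from the F statistic of this fit. Log2 CPM used a prior count of 2. Single values were compared by two-sided exact permutation tests. Alternatives were DESeq2 1.42.0, limma 3.58.1 voom, the edgeR exact test, other scalings and filters, a block on rat number and leaving out each library.

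Members are described one by one and marker lists by their sums, ranges or medians. The 5 miRNAs outside the members most like the mean of the members, and the 1 most like each member, are named. The members and lists were chosen with earlier results of these data known. Sequences are from RefSeq (GRCr8). Since the reads were aligned to rn6, this assembly gave only sequences, chromosomes, strands and neighbouring genes.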

Additional observations from a re-analysis of the deposited data

Results flagged for a closer look

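In 40 sets of 4 values, each set holding one measure in one group, 6 had a value far from the remaining 3, where chance alone gives about 2. Each of the 6 belonged to METH rat 4. Its miR-133a-3p lay at 2.36 log2 CPM, whereas METH rats 1 to 3 had 3.49 to 3.60, and miR-133b-3p lay at 0.966 log2 CPM, whereas they had 1.90 to 2.05. Its ratio of miR-1-3p to miR-133a-3p counts was 0.440, against 0.149 to 0.187. The other products of the member loci and Mir1b, nearly all of them miR-1b, summed to 12.7 CPM, against 7.91 to 8.25. The erythrocyte miRNAs summed to 2818 CPM, against 343 to 650, and the choroid plexus miRNAs to 7001 CPM, against 2785 to 2856. These sums were nearly all miR-451-5p, at 2807 CPM, and miR-204-5p, at 6901 CPM, and miR-451-3p, miR-144-5p and miR-204-3p of this rat lay within the range of the other 7 libraries. The 6 values come from 1 library, and all but the count ratio share its scaling, so they are not independent of each other.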

How the results depend on the processing

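No member passed an adjusted p of 0.05 in any of the settings run, and over these settings the adjusted p ranged from 0.479 to 0.999. Counts of calls over all miRNAs were 0, but 8 with DESeq2, 6 with the edgeR exact test and 0 to 5 with 1 library left out, the 5 without METH rat 1. miR-206-3p kept a log2 fold change above 0 in each of 17 settings.

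With 1 library left out, the log2 fold change ranged from -0.055 to 0.79 for miR-1-3p, -0.094 to 0.25 for miR-133a-3p, -0.050 to 0.28 for miR-133b-3p and 0.057 to 0.68 for miR-206-3p. The difference in mean log2 CPM ranged from 0.089 to 0.71, from -0.17 to 0.25, from -0.14 to 0.30 and from -0.0025 to 0.60 in the same order. With library totals, the log2 fold change was -0.0027 for miR-1-3p and -0.041 for miR-133a-3p, the difference in log2 CPM was -0.076 for miR-133b-3p, and r between miR-1-3p and miR-133a-3p was 0.076. List medians then turned to -0.037 for the myosin-gene miRNAs, -0.057 for smooth muscle and pericyte and -0.040 for the dopamine list, where the median of all miRNAs was -0.12 as against -0.02 with TMM. Without saline rats 1 and 2, the 2 farthest from the median of miR-1-3p, r was 0.73 for miR-1-3p and miR-206-3p. Without METH rats 3 and 4, the 2 farthest from the median of miR-133a-3p, r was 0.33 for miR-133a-3p and miR-133b-3p. The cause was not tested for any of these.

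The replicate block gave 0 calls, with log2 fold changes of -0.034 for miR-133a-3p, 0.32 for miR-206-3p, 0.35 for miR-1-3p and 0.049 for miR-133b-3p. Same-numbered rats share only a number, the correlations of their deviations were -0.34, -0.15, -0.15 and -0.36, and 0 of 8 libraries lay closest to their own number. Depth limits miR-1-3p most, with counts of 22 to 82.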
